A study of Homo sapiens with 12 samples.

Results

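A set of 10 genes that report on and restrain the ERK pathway was followed by name through RNA sequencing of the cell line SW1736, which was derived from an anaplastic (undifferentiated) thyroid carcinoma: DUSP4, DUSP5, DUSP6, SPRY2, SPRY4, SPRED1, SPRED2, ETV4, ETV5 and PHLDA1. All 10 were among the 56832 gene symbols counted, and all 10 passed the filter on low counts. Every library held at least 24 reads of each of them. The cells carried pCDH-TRB, a vector for thyroid hormone receptor beta, or pCDH-EV, the vector without the receptor. All of them were starved of hormone during 24 h, after which T3 (triiodothyronine, the active thyroid hormone) at 10 nM or vehicle (NaOH) was added for another 24 h. The 12 libraries form 4 groups of 3: EV with vehicle, EV with T3, TRB with vehicle and TRB with T3. The labels call the receptor's expression stable and do not say which promoter drives it, whether the cells are 1 clone or a pool, or whether the 3 libraries of a group came from separate cultures. The p-values therefore measure the spread between these libraries, which may be technical.

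In the ERK pathway, growth factor receptors at the membrane switch on RAS, which activates the kinases RAF, MEK and ERK in turn. ERK then raises the transcription of genes that shut the pathway down again. DUSP4, DUSP5 and DUSP6 are phosphatases that remove the activating phosphates from ERK, SPRY2 and SPRY4 (Sproutys) act between the receptors and RAS or RAF, and SPRED1 and SPRED2 bring the RAS inhibitor neurofibromin to the membrane. ETV4 and ETV5 are ETS transcription factors made in response to ERK, and PHLDA1 is a pleckstrin homology-like protein whose transcript follows the pathway's output. Because their transcripts depend on ERK, such genes are widely used as an expression readout of the pathway, which is often switched on by mutation in thyroid cancers.

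In TRB cells 3 of the 10 genes fell with T3 (DUSP5, SPRY2 and SPRY4) and DUSP4 rose in the fit of all 12 libraries, where 14.7% of all genes passed the test in either direction. In the fit of 11, 6 fell and DUSP4 rose, where 33.3% of all genes passed. SPRY2, SPRY4, DUSP5 and DUSP6 stood between 0.515 and 0.632 of their vehicle level in the fit of 11, which leaves out 1 library that stands apart, and DUSP4 stood at 1.64 times. In EV cells no member passed for T3 with 12 libraries, beside 0.229% of all genes. With 11, SPRED1, ETV5 and PHLDA1 fell there to between 0.652 and 0.769, where 7.33% of all genes passed. With vehicle, no member passed the test between TRB and EV cells. Over all genes 0.0208% passed that test with 12 libraries and 0.0742% with 11.

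Counts within genes totalled 3819306 to 13086717 per library. THRB, the gene of the supplied receptor, stood at 12.4 to 18.3 CPM (counts divided by the library's TMM-scaled total) in the 6 EV libraries and at 79.8 to 321.9 in the 6 TRB libraries. KLF9, a textbook T3 target, rose with T3 in both kinds of cell (edgeR log2 fold change 3.41 with an adjusted p of 0.00272 in EV cells and 4.05 with 5.25e-05 in TRB cells, 12 libraries). Of 7 thyroid follicular markers, TSHR and FOXE1 had no read in any library, and the 7 together summed to 1.08 to 10.9 CPM. The 5 epithelial markers summed to 2028 to 5013 CPM. Of 6 markers of blood and vessel cells, CD3E and CDH5 were at 0 throughout and the 6 summed to at most 2.53 CPM outside TRB with T3. In TRB with T3 they summed to between 0.180 and 9.99 CPM, nearly all of it CD14, which had 9.23, 0.180 and 9.74 CPM in replicates 1, 2 and 3. Its part in the results on this group was not tested.

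Replicate 2 of TRB with T3 departed from replicates 1 and 3. Across 12130 genes its difference from them had a Spearman correlation of -0.886 with gene GC content, given as a description of this library. The biological coefficient of variation was 0.335 with all 12 libraries and 0.134 without this one. Each result is therefore given from the fit of all 12 libraries (14431 genes) and from the fit of the 11 others (14825 genes). Tests are edgeR's quasi-likelihood tests, two-sided, with p-values adjusted by Benjamini-Hochberg over all genes of the fit, and a gene is said to rise or fall where the adjusted p is under 0.05.

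In that library the members' departures broadly fell with GC content, but not every member kept to the trend of all genes. The GC-poor SPRED1 (38.9% GC) and PHLDA1 (44.3%) lay 1.32 and 1.31 log2 units above the mean of replicates 1 and 3. The GC-rich ETV4 (60.8%) lay below it with a difference of -2.7. DUSP4, SPRED2 and ETV5, between 48.6% and 51.3% GC, departed by -0.26 to -0.12. SPRY4 (50.4%) and DUSP5 (55.9%) departed by -0.86 and -0.77, SPRY2 (48.3%) by -0.44 and DUSP6 (46.7%) by 0.39. The middle 50% of all genes was -2.6 to -1.29 in the GC bin of DUSP5 and -1.48 to -0.31 in that of DUSP4. Both genes lay above it. In the bin of SPRY2 it was -0.36 to 0.63, and SPRY2 lay below it. SPRED1, PHLDA1 and ETV4, with the largest departures, are also the members whose T3 response in TRB cells differs most between the fits.

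**Figure D1:**
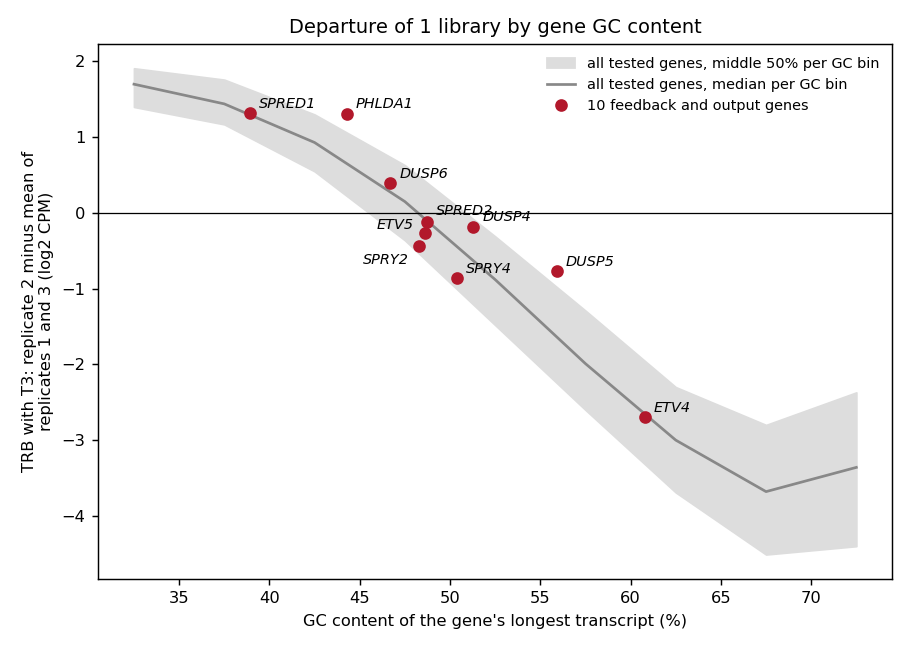
GC content of each gene's longest transcript (x axis, percent) against the difference of TRB with T3 replicate 2 from the mean of replicates 1 and 3 (y axis, log2 CPM). Points are the 10 genes, the line is the median and the band the middle 50% of all tested genes in GC bins of 5 percentage points, with thinly filled bins left out. SPRED1 and PHLDA1 lie above 1 and ETV4 lies at -2.7.

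The genes are spread over 9 chromosomes. On GRCh38 with GENCODE release 29, DUSP4 spans chr8:29333064-29350668, DUSP5 chr10:110497838-110511544 and DUSP6 chr12:89347232-89353271. SPRY2 spans chr13:80335976-80340951 and SPRY4 chr5:142310427-142326455. SPRED1 spans chr15:38252326-38357249 and SPRED2 chr2:65310851-65432637. ETV4 spans chr17:43527844-43579620, ETV5 chr3:186046308-186110318 and PHLDA1 chr12:76025447-76033932. DUSP5 and SPRED1 are on the plus strand and the other 8 on the minus strand. Other annotated genes overlap SPRY4 (SPRY4-AS1), ETV4 (DHX8), ETV5 (DGKG and ETV5-AS1), DUSP6, SPRED2 and PHLDA1. The strand setting of the counting is not given in the sources used here, so reads of these overlaps cannot be told apart.

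The response to hormone with the receptor supplied is the T3 against vehicle contrast of TRB cells. With 12 libraries 4 of the 10 members passed, DUSP4 higher and DUSP5, SPRY2 and SPRY4 lower. Over all genes of that fit 14.7% passed, 8.54% higher and 6.2% lower. With 11 libraries 7 members passed, DUSP4 higher and DUSP5, DUSP6, SPRY2, SPRY4, SPRED1 and ETV5 lower, where 33.3% of all genes passed, 18.1% higher and 15.2% lower. The median log2 fold change of the 10 was -0.48 with 12 libraries and -0.50 with 11, beside 0.01 and -0.01 over all genes tested. With 1 library left out at a time the number of members called ran from 1 (without TRB with vehicle replicate 2) to 7 (without TRB with T3 replicate 2), in fits where 8.48% to 33.3% of all genes passed. With the TRB libraries fitted alone it was 0, beside 4.52% of all genes. It was 8 when TRB with T3 replicate 2 was also left out, a setting chosen after seeing the data in which 50% of all genes passed.

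**Figure D2:**
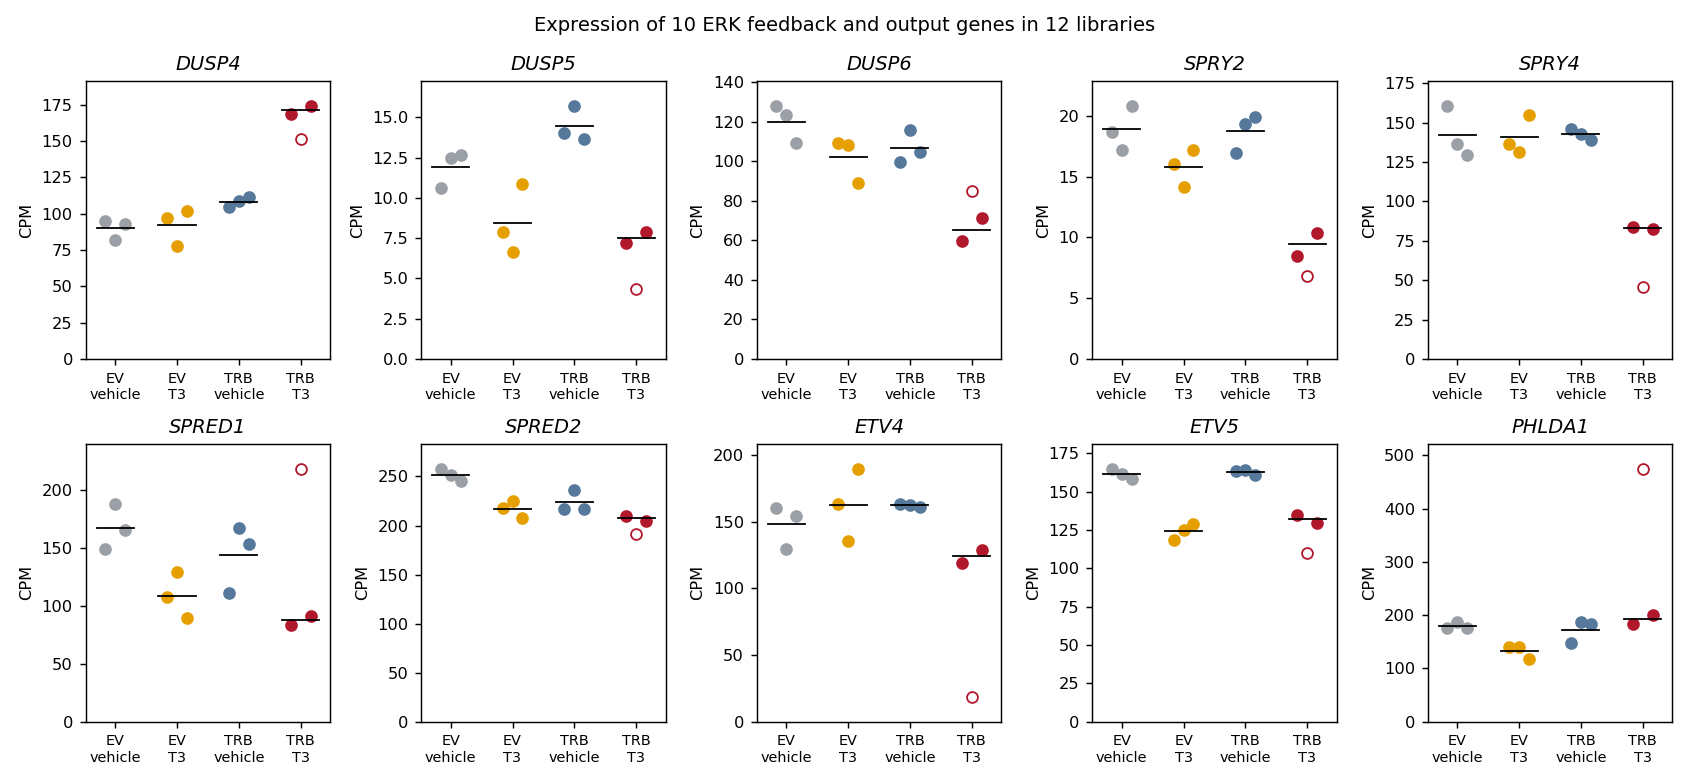
CPM (y axis, from 0) of the 10 genes in each of the 12 libraries, by group (x axis). Filled points are libraries, the open point is TRB with T3 replicate 2, and the line is the group mean without that library. The 3 TRB with T3 libraries lie below all others for SPRY2, SPRY4, DUSP6 and, narrowly, ETV4, and above all others for DUSP4. The share of all genes separated in this way was not counted. The open point stands far from its group for SPRED1, ETV4 and PHLDA1.

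Among the phosphatases, DUSP4, a nuclear enzyme that acts on ERK and other MAP kinases, went up. It had 94.7, 82.0 and 92.8 CPM in replicates 1 to 3 of EV with vehicle, 97.1, 77.5 and 102 in EV cells with T3, 105, 109 and 111 in TRB with vehicle, and 169, 151 and 174 in TRB with T3. All 3 TRB with T3 libraries lay above the other 9, and the EV groups overlapped each other. In TRB cells the log2 fold change with T3 was 0.61 ± 0.15 (SE) with 12 libraries (edgeR adjusted p = 0.023) and 0.71 ± 0.12 with 11 (adjusted p = 0.000521). In EV cells it was 0.04 ± 0.15 and 0.03 ± 0.11.

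DUSP5, a nuclear phosphatase with ERK as its substrate, had the lowest mean CPM per kilobase of exon among the members in each group. In both TRB groups its range overlapped that of SPRY2. The CPM of DUSP5 were 10.6, 12.5 and 12.7 in EV cells with vehicle, 7.87, 6.66 and 10.9 in EV cells with T3, 14.0, 15.7 and 13.7 in TRB with vehicle, and 7.21, 4.32 and 7.87 in TRB with T3. The TRB groups did not overlap, and the EV groups did in 1 library. In TRB cells it fell by 1.15 ± 0.25 on the log2 scale with 12 libraries (edgeR adjusted p = 0.0116) and by 0.90 ± 0.18 with 11 (adjusted p = 0.00168). In EV cells the log2 fold change was -0.52 ± 0.26 and -0.56 ± 0.17 (adjusted p = 0.869 and 0.0614).

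DUSP6, the cytoplasmic ERK phosphatase, had 128, 123 and 109 CPM in EV cells with vehicle, 109, 108 and 89.1 in EV cells with T3, 99.5, 116 and 105 in TRB with vehicle, and 59.6, 85.1 and 71.1 in TRB with T3. The 3 TRB with T3 libraries were below the other 9. With 12 libraries its log2 fold change in TRB cells was -0.57 ± 0.17 with an edgeR adjusted p of 0.0511, just outside the threshold. With 11 libraries it fell by 0.66 ± 0.14 (adjusted p = 0.00269). DUSP4 and DUSP6, phosphatases of the same family, thus had fold changes of opposite sign in TRB cells.

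Both Sproutys fell in TRB cells. SPRY2 had 18.7, 17.2 and 20.8 CPM in EV cells with vehicle, 16.1, 14.2 and 17.2 in EV cells with T3, 17.0, 19.3 and 19.9 in TRB with vehicle, and 8.48, 6.84 and 10.4 in TRB with T3. SPRY4 had 160.3, 137 and 129.7 CPM in EV cells with vehicle, 136, 131 and 155 in EV cells with T3, 146, 143 and 139 in TRB with vehicle, and 83.7, 45.7 and 82.4 in TRB with T3. For both genes the TRB with T3 libraries were the lowest of the 12, with replicate 2 lowest of all. SPRY2 fell by 1.12 ± 0.20 on the log2 scale with 12 libraries (edgeR adjusted p = 0.00328) and by 0.96 ± 0.16 with 11 (adjusted p = 0.000454). SPRY4 fell by 1.01 ± 0.22 (adjusted p = 0.0111) and by 0.73 ± 0.12 (adjusted p = 0.000384). In EV cells the SPRY4 log2 fold change was -0.01 ± 0.22 with 12 libraries and -0.02 ± 0.10 with 11, and its sign differed under other scalings.

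SPRED1 had 149, 188 and 165 CPM in EV cells with vehicle, 107, 129 and 89.1 in EV cells with T3, 111, 167 and 153 in TRB with vehicle, and 83.7, 218 and 91.2 in TRB with T3. Its replicate 2 of TRB with T3 was the highest of the 12 libraries while replicates 1 and 3 were among the 3 lowest. With 12 libraries its log2 fold change in TRB cells was -0.14 ± 0.34 (edgeR adjusted p = 0.799), and with 11 it fell by 0.67 ± 0.19 (adjusted p = 0.0157). SPRED2 had 258, 251 and 246 CPM in EV cells with vehicle, 218, 225 and 207 in EV cells with T3, 217, 236 and 217 in TRB with vehicle, and 209.9, 191 and 205 in TRB with T3. EV with vehicle was its highest group and the other 3 lay close to each other. Its log2 fold change in TRB cells was -0.15 ± 0.12 with 12 libraries and -0.06 ± 0.10 with 11, neither past the threshold (adjusted p = 0.435 and 0.68).

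ETV5, an ETS factor, had 165, 161 and 158 CPM in EV cells with vehicle, 118, 125 and 129 in EV cells with T3, 164, 164 and 161 in TRB with vehicle, and 135, 110.3 and 129.7 in TRB with T3. Both T3 groups lay below both vehicle groups. In TRB cells its log2 fold change was -0.39 ± 0.13 with 12 libraries (edgeR adjusted p = 0.079), and it fell by 0.26 ± 0.09 with 11 (adjusted p = 0.045).

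ETV4 had 160.5, 129.8 and 155 CPM in EV cells with vehicle, 163, 136 and 189.6 in EV cells with T3, 163, 162 and 161 in TRB with vehicle, and 119, 18.9 and 129 in TRB with T3. The TRB with T3 libraries were the lowest of the 12, and replicate 2 stood far under the other 2. Its log2 fold change in TRB cells was -0.86 ± 0.50 with 12 libraries and -0.34 ± 0.14 with 11, and neither passed (edgeR adjusted p = 0.264 and 0.0726).

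PHLDA1 had 177, 188 and 176 CPM in EV cells with vehicle, 140.0, 139.6 and 118 in EV cells with T3, 148, 188 and 183 in TRB with vehicle, and 183, 474 and 201 in TRB with T3. EV with T3 was its lowest group, and replicate 2 of TRB with T3 exceeded every other library. Its log2 fold change in TRB cells was 0.73 ± 0.31 with 12 libraries and 0.20 ± 0.13 with 11 (edgeR adjusted p = 0.148 and 0.259).

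**Figure D3:**
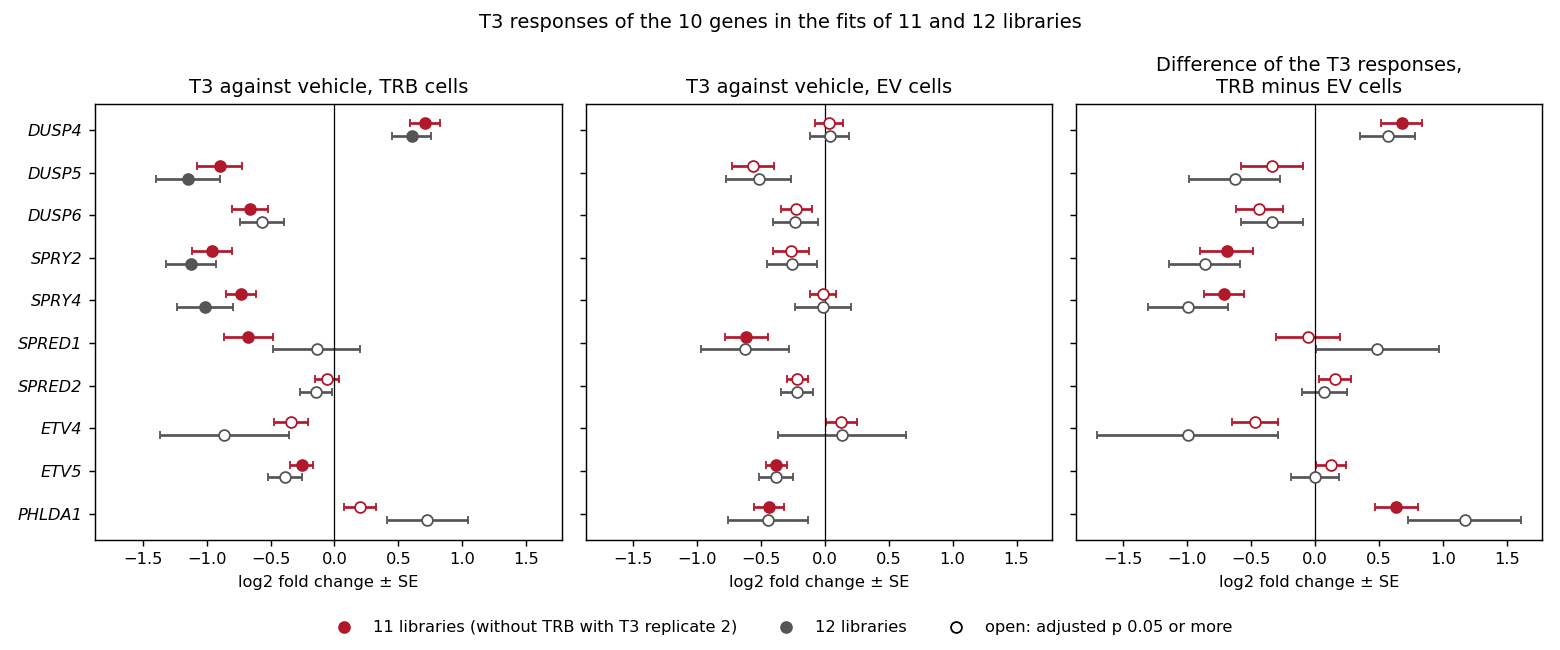
Log2 fold change ± SE (x axis) of the 10 genes (y axis) for T3 against vehicle in TRB cells, the same in EV cells, and the difference of the 2 responses. Grey marks are the fit of 12 libraries and red marks that of 11, and open marks have an edgeR adjusted p of 0.05 or more. In TRB cells 7 red marks and 4 grey marks are filled, and the SE bars are widest for ETV4 with 12 libraries.

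EV cells respond to T3 with whatever receptor they make themselves. With 12 libraries edgeR called 0 members at the adjusted threshold, beside 0.229% of all genes. An unadjusted p under 0.05 was found for 1 member (ETV5) and for 881 of the 14431 genes tested. DESeq2 also called 0 members, beside 1.19% of all genes. With the EV libraries fitted alone edgeR called 0 members, beside 1.49% of all genes. With 11 libraries 3 members fell and 0 rose, where 7.33% of all genes passed, 3.76% higher and 3.57% lower. SPRED1 fell by 0.62 ± 0.17 on the log2 scale (edgeR adjusted p = 0.0462), PHLDA1 by 0.44 ± 0.12 (adjusted p = 0.0417) and ETV5 by 0.38 ± 0.08 (adjusted p = 0.0178). The EV libraries with and without T3 did not overlap for these 3 genes. They also did not overlap for SPRED2, which did not pass (edgeR adjusted p = 0.131). The share of all genes without such overlap was not counted. With GC offsets, which remove each library's smooth trend with GC content, and 11 libraries, 5 members passed beside 17.7% of all genes, and the SPRED1 log2 fold change was smaller, at -0.27 ± 0.09 (adjusted p = 0.0452). The left-out library is not one of the EV groups, and the fits differ in the spread they estimate. The biological coefficient of variation was 0.091 within EV with vehicle and 0.215 within EV with T3, beside 0.134 over the 11 libraries. Non-unique alignments took 33.08% to 66.32% of everything counted in EV with vehicle and 69.6% to 91.95% in EV with T3, and their part in these results was not tested. The median of the 10 was -0.24 in both fits, beside 0.00 and 0.01 over all genes.

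With vehicle alone no difference between TRB and EV cells passed at these genes. Members called numbered 0 in edgeR with 12 and with 11 libraries, where 0.0208% and 0.0742% of all genes passed. DUSP4 alone of the members had an unadjusted p under 0.05, with 11 libraries, as did 1837 of the 14825 genes tested. DUSP4 was also the member with the largest fitted difference with 11 libraries, at a log2 fold change of 0.28 ± 0.11 (adjusted p = 0.376), and its TRB libraries lay above its EV libraries. With those 2 groups fitted alone its adjusted p was 0.0398, in a fit where 11.2% of all genes passed. SPRY2, SPRY4 and ETV5 differed by at most 0.03 in size in either fit.

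The comparison of TRB with EV cells under T3 uses the same TRB with T3 libraries as the T3 response in TRB cells. With 12 libraries 3 members passed, DUSP4 higher and SPRY2 and SPRY4 lower, where 6.68% of all genes passed, 4.13% higher and 2.55% lower. With 11 libraries 5 passed, these 3 with PHLDA1 (higher) and DUSP6 (lower), where 19.7% of all genes passed, 11.8% higher and 7.9% lower. With 1 library left out at a time 1 to 5 members were called, beside 2.79% to 19.7% of all genes. With these 2 groups fitted alone 0 were called, beside 0.241% of all genes. The DUSP4 log2 fold change was 0.84 ± 0.15 with 12 libraries (edgeR adjusted p = 0.00894) and 0.96 ± 0.12 with 11 (adjusted p = 0.000112). SPRY4 was lower, at -0.99 ± 0.22 (adjusted p = 0.0236) and -0.69 ± 0.12 (adjusted p = 0.00113). SPRY2 was lower, at -0.88 ± 0.20 (adjusted p = 0.0249) and -0.69 ± 0.16 (adjusted p = 0.00978). With 11 libraries PHLDA1 was higher by 0.59 ± 0.13 (adjusted p = 0.00553) and DUSP6 lower, at -0.59 ± 0.14 (adjusted p = 0.00938).

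Whether T3 acted differently in the 2 kinds of cell was tested by the interaction of hormone and vector. With 12 libraries 0 members passed in edgeR, beside 2.59% of all genes. An unadjusted p under 0.05 was found for 4 members and for 2879 of the 14431 genes tested. DESeq2 called 2 members, beside 7.08% of all genes. With 11 libraries 4 passed, DUSP4 and PHLDA1 with a more positive response in TRB cells and SPRY2 and SPRY4 with a more negative one, where 15.2% of all genes passed, 8.55% in the positive and 6.68% in the negative direction. The difference of the log2 fold changes was 0.68 ± 0.16 for DUSP4 (adjusted p = 0.0146) and 0.64 ± 0.17 for PHLDA1 (adjusted p = 0.0253). It was -0.71 ± 0.16 for SPRY4 (adjusted p = 0.00865) and -0.69 ± 0.21 for SPRY2 (adjusted p = 0.0421). For ETV5 it was 0.12 ± 0.12 and for SPRED1 -0.06 ± 0.25, so a difference of responses between TRB and EV cells was not detected for either with 11 libraries. For DUSP5 and DUSP6 it was -0.34 ± 0.24 and -0.44 ± 0.18 (adjusted p = 0.379 and 0.13).

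Removing each library's smooth trend with GC content changed which members passed. With GC offsets and 11 libraries 8 members passed for T3 in TRB cells: ETV4 (-0.46 ± 0.06, edgeR adjusted p = 1.6e-05) was called lower in addition to the 7 above, where 56.1% of all genes passed. With GC offsets and all 12 libraries 8 passed as well, beside 42.8% of all genes. In the interaction 7 passed with 11 libraries and GC offsets, beside 34.4% of all genes, among them SPRED1 with -0.45 ± 0.13 (adjusted p = 0.0149), whose value without offsets was near 0. The calls for DUSP4 and SPRY4 in the interaction kept their direction there, at 0.69 ± 0.11 and -0.72 ± 0.11 (adjusted p = 0.000155 and 9.9e-05).

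Levels of different genes were compared only as CPM per kilobase of exon. In EV with vehicle SPRED2 was highest at 48.8 ± 1.15 CPM per kilobase (SD, n = 3), followed by ETV4 at 41.1 ± 4.52, ETV5 at 27.9 ± 0.552 and DUSP6 at 25.9 ± 2.10. PHLDA1, SPRY4 and SPRED1 came next at 22.3 ± 0.816, 21.7 ± 2.45 and 20.3 ± 2.36, then DUSP4 at 12.4 ± 0.947, SPRY2 at 6.21 ± 0.596 and DUSP5 at 4.57 ± 0.432. ETV5 and DUSP6 overlapped in range, as did PHLDA1 with SPRY4 and SPRY4 with SPRED1, so those neighbours have no order beyond their spread. In TRB with T3, from replicates 1 and 3, DUSP4 was at rank 4 with 23.6 CPM per kilobase and overlapped PHLDA1 at rank 3 (23.8). It was above ETV5 at 22.8, DUSP6 at 14.1 and SPRY4 at 12.7. The lowest DUSP4 value, 23.27, was close to the highest ETV5 value, 23.21. SPRY2 and DUSP5 remained the lowest pair at 3.10 and 2.88 and overlapped.

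Promoter sequences were available from RefSeq (GRCh38.p14) for 6 of the 10 genes: DUSP6, SPRY2, SPRY4, SPRED1, SPRED2 and PHLDA1. DUSP4, DUSP5, ETV4 and ETV5 had no entry. The 250 bases before the start site are shown for SPRY4, SPRY2 (the most upstream of 3 starts) and DUSP6, the genes with an entry whose 3 TRB with T3 libraries were the lowest of the 12. The share of all genes with that order was not counted. Each sequence is written 5′ to 3′ on the minus strand. The SPRY4 and DUSP6 windows lie inside the GENCODE spans given above, downstream of the annotated gene start. The SPRY2 window lies outside its span. Capitals mark GGAA or its complement TTCC, the core that ETS factors such as ETV4 and ETV5 recognise, a motif chosen after the data were seen.
SPRY4 chr5:142324248-142324497: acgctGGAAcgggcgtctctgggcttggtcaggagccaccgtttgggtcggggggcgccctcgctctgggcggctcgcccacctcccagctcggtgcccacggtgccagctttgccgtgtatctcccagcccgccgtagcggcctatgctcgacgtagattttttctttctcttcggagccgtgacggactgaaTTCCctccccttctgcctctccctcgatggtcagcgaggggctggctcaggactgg
SPRY2 chr13:80341127-80341376: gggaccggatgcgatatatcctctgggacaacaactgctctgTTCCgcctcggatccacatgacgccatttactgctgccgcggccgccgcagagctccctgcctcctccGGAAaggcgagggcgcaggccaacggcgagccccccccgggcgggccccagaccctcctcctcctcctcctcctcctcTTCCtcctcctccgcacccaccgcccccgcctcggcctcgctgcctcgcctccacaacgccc
DUSP6 chr12:89352502-89352751: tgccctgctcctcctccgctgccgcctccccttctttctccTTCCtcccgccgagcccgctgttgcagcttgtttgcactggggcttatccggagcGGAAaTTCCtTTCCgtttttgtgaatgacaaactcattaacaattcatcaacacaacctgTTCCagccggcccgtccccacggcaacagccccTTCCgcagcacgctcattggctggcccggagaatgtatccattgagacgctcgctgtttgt
DUSP6 holds 6 cores, SPRY2 3 and SPRY4 2. The core is common: 92.7% of 35116 promoter windows of that length hold it on either strand, with a median of 3.

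Longer motifs were searched on both strands in the 300 bases from 250 before to 50 after the start. The AP-1 motif TGANTCA was found in SPRED2 alone, at its downstream start, 6 bases before it and again from base 35 after it. It is in 7.71% of all promoters. The half-site of thyroid hormone receptors, AGGTCA, occurred in SPRY4 alone, on the opposite strand as TGACCT from base 44 after the start, and is in 13.8% of all promoters. That stretch, with the half-site in capitals, is shown because SPRY4 had the most negative interaction of T3 and receptor of the 10 with 11 libraries.
SPRY4 chr5:142324198-142324227: tggcgaggcggttcctcgccgtcTGACCTt
The CRE motif TGACGTCA (1.85% of all promoters), the ETS motif CCGGAAG (10.3%) and a direct repeat of half-sites 4 bases apart (0.0199%) were in none of the 6 genes' windows. A match is a description of these letters, and binding was not measured.

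Other genes of the pathway were taken from 4 lists, whose counts for T3 in TRB cells stand beside 14.7% of all genes called with 12 libraries and 33.3% with 11. Of 17 receptors and ligands 12 were tested for T3 in TRB cells, and 2 rose and 3 fell with 12 libraries (2 and 4 with 11). HBEGF, a ligand of the EGF receptor, had 2.03, 1.90 and 2.01 CPM in TRB with vehicle and 17.9, 31.8 and 22.0 in TRB with T3, and rose by a log2 fold change of 3.58 ± 0.34 with 12 libraries (edgeR adjusted p = 6.3e-05) and 3.36 ± 0.25 with 11. FGF receptors moved both ways: FGFR4 fell by 2.68 ± 0.68 and 2.11 ± 0.24 on the log2 scale, FGFR3 fell by 1.60 ± 0.45 and 1.12 ± 0.18, and FGFR2 rose by 0.64 ± 0.14 and 0.69 ± 0.10. HBEGF was the receptor or ligand called in the interaction with both 12 and 11 libraries (2.92 ± 0.46 and 2.69 ± 0.37, adjusted p = 0.00889 and 0.000524).

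Of 21 tested genes of the relay, from SHC1 to the ERK kinases and their RSK targets, 2 rose with T3 in TRB cells and 0 fell with 12 libraries, and 2 rose and 1 fell with 11, where 14.7% and 33.3% of all genes passed. The 2 that rose in both fits are the exchange factors SOS1 and SOS2, which load RAS with GTP. SOS2 rose by 1.62 ± 0.46 on the log2 scale with 12 libraries (edgeR adjusted p = 0.0397) and 0.87 ± 0.26 with 11 (adjusted p = 0.0201), and SOS1 by 1.31 ± 0.37 and 0.77 ± 0.22. Replicate 2 held 258.7 CPM of SOS2, against 81.3 and 78.7 in replicates 1 and 3. It held 310.9 CPM of SOS1, against 131.8 and 115.5, so the larger values of both genes rest on it. Relay genes called numbered 0 with limma-voom and with the compared groups alone, beside 15.1% and 4.52% of all genes. The number was also 0 without replicate 1, 2 or 3 of TRB with vehicle, beside 8.61%, 8.76% and 8.48%. The median log2 fold change of the 21 was -0.03 with 12 libraries and 0.12 with 11.

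Among 14 tested paralogs and other feedback genes (16 listed), 1 rose and 4 fell with T3 in TRB cells with 12 libraries, and 4 rose and 6 fell with 11. DUSP10, a phosphatase of the stress kinases JNK and p38, had 3, 3 and 5 reads in TRB with vehicle and 240, 192 and 145 in TRB with T3, or 0.305, 0.259 and 0.420 against 18.0, 34.5 and 18.1 CPM. Its fitted size depends on the prior count because the vehicle reads are so few, but the groups are far apart and the edgeR adjusted p was 5.15e-05. DUSP2, a nuclear MAP kinase phosphatase, fell by 2.38 ± 0.58 and 1.87 ± 0.31 on the log2 scale, LRIG1, which promotes the degradation of ERBB receptors, by 1.22 ± 0.27 and 0.91 ± 0.16, and another Sprouty, SPRY1, by 0.65 ± 0.16 and 0.53 ± 0.12. With T3 added, ERRFI1, an inhibitor of EGFR, was higher in TRB than in EV cells by 0.69 ± 0.17 (adjusted p = 0.0345) and 0.56 ± 0.10 (adjusted p = 0.00208), and DUSP16 lower, at -0.63 ± 0.17 and -0.52 ± 0.14.

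Among 15 other output genes, 1 rose and 3 fell with T3 in TRB cells with 12 libraries, and 2 rose and 4 fell with 11. MYC had 379, 423 and 382 CPM in TRB with vehicle and 139, 91.4 and 149.8 in TRB with T3, and fell by 1.64 ± 0.21 on the log2 scale with 12 libraries (edgeR adjusted p = 0.000422) and by 1.40 ± 0.14 with 11 (adjusted p = 8.47e-06). It also passed in the interaction, at -1.35 ± 0.29 (adjusted p = 0.0351) and -1.11 ± 0.18 (adjusted p = 0.00172). CCND1, the gene of cyclin D1, went the other way, rising by 0.77 ± 0.15 and 0.68 ± 0.10. ETS2 fell by 0.61 ± 0.14 and 0.46 ± 0.09. EPHA4 was called lower at no more than 15 reads in any library. EGR1, an immediate early gene, was lower in TRB than in EV cells with T3 by -1.14 ± 0.28 (adjusted p = 0.0365) and -0.78 ± 0.14 (adjusted p = 0.00159).

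**Figure D4:**
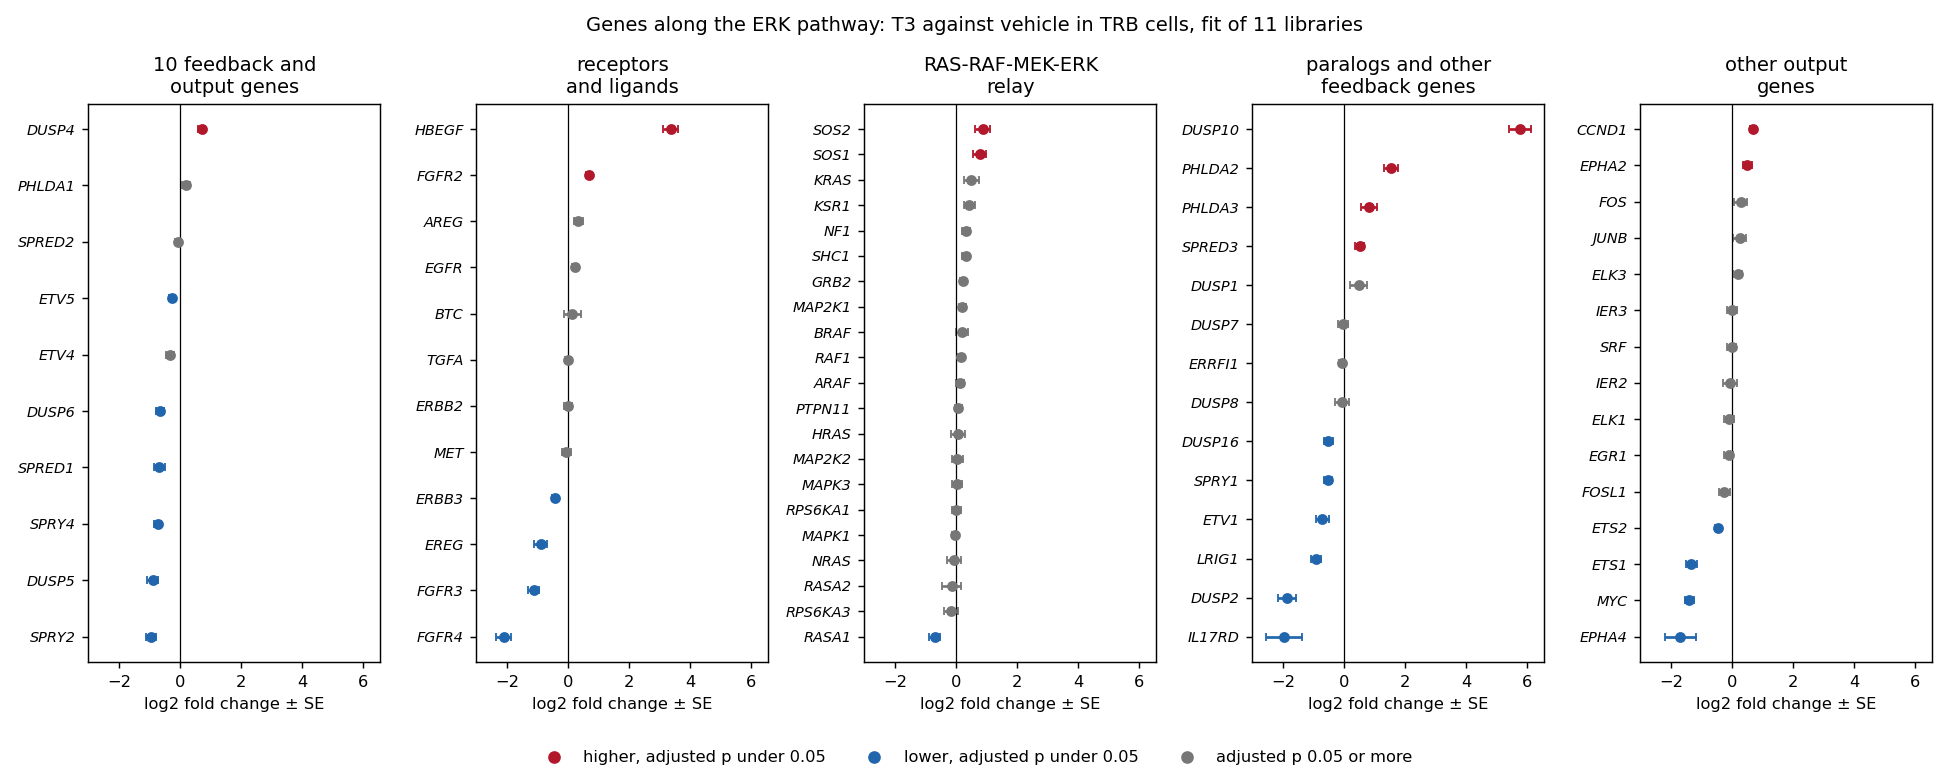
Log2 fold change ± SE (x axis) for T3 against vehicle in TRB cells, fit of 11 libraries, of the tested genes of 5 lists (y axis, ordered by value in each panel). Red marks are higher and blue marks lower with an edgeR adjusted p under 0.05, and grey marks did not pass. DUSP10 and HBEGF lie farthest to the right, and most of the 21 relay genes are grey.

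In EV cells 0 genes of these 4 lists passed for T3 in edgeR with 12 libraries, beside 0.229% of all genes. With 11 libraries 4 genes fell and 0 rose, where 7.33% of all genes passed. They were 1 of 12 tested receptors and ligands (EREG) and 1 of 21 relay genes (RASA1). The others were 2 of 14 paralogs and other feedback genes (ETV1 and ERRFI1), with 0 of 15 other output genes. These 4 genes were named after their values were seen. ERRFI1 had 156.8, 169 and 155 CPM in EV with vehicle and 96.2, 107 and 95.2 in EV cells with T3, and fell by 0.68 ± 0.09 on the log2 scale (adjusted p = 0.00122). In TRB with vehicle and with T3 it had 150.1, 156 and 149 and then 134, 199 and 148 CPM, groups that overlap.

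Genes whose pattern was most like that of DUSP6 were sought over the 11 libraries by the root mean square difference of centred log2 CPM among 10194 genes. CAV1, RPL14 and SLC35F2 were nearest, at 0.0902, 0.0939 and 0.0955. Of the other members SPRY4 was nearest at rank 251 (0.174), then SPRY2 at rank 430 (0.191), and DUSP4 was farthest at rank 9468 (0.653). The distances all come from the same libraries and are given as a description.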

How the data were processed

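RNA sequencing of total RNA gave 12 libraries, 3 for each of 4 groups taken from the labels. For each library the authors deposited raw read counts by gene symbol. Per the submitters' processing notes the tools were CASAVA 1.7, STAR 2.7, HTSeq 0.10 and DESeq2 with build hg38; the annotation, strand and counting options are not given in the sources used here. The 5 closing lines for reads of no gene (of all counted, 19.03% to 91.95% were not uniquely aligned) were left out. The deposited normalized table was not used.

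Counts were fitted in R 4.3.3 with edgeR 4.0.16: filterByExpr (minimum count 10, total 15), TMM scaling, 1 coefficient per group, 5 contrasts, Benjamini-Hochberg over all genes at 0.05. SE is the log2 fold change over the root of F. CPM are counts scaled by TMM library size. The procedure was tested on counts simulated for the design of 11 libraries, without a GC trend. The fit of 12 libraries was not tested in this way. Alternatives were other scalings and filters, a replicate block, GC offsets (spline, 5 degrees of freedom, 12130 or 12306 genes), compared groups alone, limma-voom 3.58.1, DESeq2 1.42.0 and leaving out each library.

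The members and lists were chosen with earlier results of these data known. All members are named. At most 4 genes of each other list are named per contrast, those with the largest log2 fold change among genes called the same way with 12 and with 11 libraries. Like genes of DUSP6 are the 3 nearest whose mean log2 CPM reaches 3. Replicate numbers were not treated as pairs, because the labels do not say that they mark shared cultures. Over all 6 pairs of groups the 18 correlations of same-numbered deviations ran from -0.19 to 0.728, with 12 over 0.1. For EV with T3 and TRB with T3, which are compared directly, they were 0.0589, 0.728 and 0.636 in replicates 1 to 3. All 3 exceeded 0.1 only for EV with vehicle and TRB with T3 (0.155 to 0.501), which both enter the interaction. Counts of replicates differed beyond sampling noise, so none were merged.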

Additional observations from a re-analysis of the deposited data

Results flagged for a closer look

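In 4 genes the T3 response differed between TRB and EV cells by the test of the difference itself, with 11 libraries. In that fit 15.2% of all genes passed the same test. The response in TRB cells minus that in EV cells was 0.68 for DUSP4 and 0.64 for PHLDA1, and it was -0.69 for SPRY2 and -0.71 for SPRY4 (log2 scale). With all 12 libraries the values were 0.57, 1.17, -0.87 and -0.996, and none passed (edgeR adjusted p from 0.133 to 0.198). Over all genes 2.59% passed there.

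For PHLDA1 the 2 responses have opposite signs: it fell in EV cells, and its change in TRB cells did not pass. For DUSP4, SPRY2 and SPRY4 the response in EV cells did not pass, and that in TRB cells did. CD14, the marker of other cells that was higher in TRB with T3, had 9.23 and 9.74 CPM in replicates 1 and 3; its part in these results was not tested.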

How the results depend on the processing

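For T3 in TRB cells 4 members were called with all 12 libraries, beside 14.7% of all genes. The number was 8 with GC offsets on 12 and on 11 libraries, beside 42.8% and 56.1%. It was 0 with the compared groups alone, beside 4.52%. For those groups without TRB with T3 replicate 2 (chosen after seeing the data) it was 8, beside 50%. Leaving out 1 library gave 1 to 7, beside 8.48% to 33.3% of all genes. It gave 7 with TRB with T3 replicate 2 omitted. With replicates 1, 2 and 3 of TRB with vehicle omitted in turn it gave 2, 1 and 2, beside 8.61%, 8.76% and 8.48%. The DUSP4 call was lost without any one of the TRB with vehicle libraries or replicate 1 or 3 of TRB with T3 (edgeR adjusted p 0.0513 to 0.0896), and the SPRY4 call without any one TRB with vehicle library (0.0511 to 0.0613). The DUSP5 call was lost without TRB with vehicle replicate 2 (0.0613). The cause was not tested. For T3 in EV cells the count was 0, beside 0.229% of all genes. GC offsets on 12 and 11 libraries gave 1 and 5, beside 4.47% and 17.7%. The compared groups alone gave 0, beside 1.49%. Leaving out 1 library gave 0 to 3, beside 0.0674% to 7.33%. For TRB against EV with vehicle the count was 0, beside 0.0208% of all genes. It was 1 with the compared groups alone, beside 11.2%. With 1 library left out it was always 0, beside 0.00674% to 0.0742%. For TRB against EV with T3 the count was 3, beside 6.68% of all genes. It was 0 without a count filter, beside 2.19%, and 5 with at least 10 counts in every library, beside 8.47%. GC offsets on 12 and on 11 libraries gave 7, beside 28.8% and 41.8%. The compared groups alone gave 0, beside 0.241%. Those groups without TRB with T3 replicate 2 gave 2, beside 8.85%. Leaving out 1 library gave 1 to 5, beside 2.79% to 19.7%. It gave 1 without any single EV with T3 or TRB with vehicle library. It also gave 1 without EV with vehicle replicate 2 or 3, and 2 without EV with vehicle replicate 1. For the interaction the count was 0, beside 2.59% of all genes. GC offsets on 12 and 11 libraries gave 5 and 7, beside 19.3% and 34.4%. DESeq2 gave 2, beside 7.08%. Leaving out 1 library gave 0 to 4, beside 0.918% to 15.2%, with 4 reached without TRB with T3 replicate 2.

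Over the whole table, calls for T3 in TRB cells (2128) were 634 for the compared groups alone and up to 7352 for those groups without TRB with T3 replicate 2, for T3 in EV cells (33) from 10 with 1 library left out to 2180 with GC offsets on 11 libraries, for vehicle (3) from 1 to 1563 with the compared groups alone, for TRB against EV with T3 (964) from 32 to 5144, and for the interaction (374) from 136 to 4237.

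The replicate block moved the members called for T3 in TRB cells from 4 to 5, beside 14.7% and 15.8% of all genes. It moved calls over all genes for T3 in EV cells from 33 to 18. Same-numbered libraries correlated best with their own number in 2 to 4 of 6 cases in each of the 6 pairs of groups. These values do not settle whether the numbers mark pairs, and the main fits do not treat them as such.

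Of 1110 values of members under alternatives, 72 changed sign. With GC offsets on 12 and 11 libraries SPRED1 was lower in TRB than in EV cells with T3 (-0.43 and -0.42, edgeR adjusted p 0.0094 and 0.00336) and in the interaction (-0.46 and -0.45). The other sign changes did not pass. For T3 in EV cells they were DUSP4 (-0.01 without a filter, -0.08 and -0.084 with GC offsets), SPRY4 (0.026 with RLE, 0.033 with upper-quartile scaling, 0.028 with the stricter filter, 0.026 in DESeq2) and ETV4 (-0.107 and -0.103 with GC offsets). With vehicle they were SPRY2 (0.025 with RLE, 0.034 with upper-quartile scaling, 0.038 with the stricter filter, 0.006 and 0.008 with GC offsets, 0.019 with the compared groups alone, 0.027 in DESeq2), SPRY4 (-0.01 without a filter, -0.03 and -0.024 with GC offsets) and ETV5 (-0.003 without a filter), and with GC offsets SPRED1 (0.032 and 0.029), ETV4 (-0.064 and -0.062) and PHLDA1 (0.055 and 0.056). With T3 they were SPRED1 (-0.33 for the compared groups alone without TRB with T3 replicate 2, adjusted p 0.358), DUSP5 (0.029 with GC offsets on 12 libraries) and ETV5 (-0.04 with upper-quartile scaling, -0.027 with the stricter filter). In the interaction they were SPRED2 (-0.026 and -0.017, same settings) and ETV5 (0.002 with RLE, 0.02 without a filter, 0.036 and 0.081 with GC offsets, 0.006 in DESeq2). With 1 library left out the ranges that crossed 0 were SPRED1 -0.67 to 0.096 for T3 in TRB cells. For T3 in EV cells they were DUSP4 -0.011 to 0.20 and SPRY4 -0.058 to 0.13. With vehicle they were SPRY2 -0.053 to 0.087, SPRY4 -0.035 to 0.13 and PHLDA1 -0.09 to 0.068. With T3 they were SPRED1 -0.26 to 0.51 and ETV5 -0.031 to 0.15, and in the interaction SPRED1 -0.057 to 0.69 and ETV5 -0.081 to 0.12.

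Depth limits DUSP5 and SPRY2 most, with as few as 24 and 38 reads in a library.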
